A study of Mus musculus with 6 samples.

Results

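Among the circular RNAs (circRNAs) listed in 6 brain libraries of aged male mice, 1191 were exonic circles of middle span whose closed form made up a very small part of the RNA read at their own splice sites. They were chosen on measured values, by taking circles labelled exonic that span 1000 to 50000 bp of genome between their ends, hold at least 10 back-splice junction reads over the 6 libraries, and have a circular share under 2%. The circular share is the junction reads divided by junction plus linear reads, summed over the libraries where a circle was listed. The rule kept 1191 of 3216 exonic circles of that span with at least 10 reads, out of 11895 circRNAs listed in all, and the other 2025 had a share of 2% or more. The mice were C57BL/6 males aged 14 months. In the DHT group (3 libraries), dihydrotestosterone, an androgen that aromatase does not convert to an oestrogen, was injected subcutaneously every morning for 14 days, and in the oil group (3 libraries) medical corn oil was injected on the same schedule. The labels also call the DHT libraries the testosterone group, name hippocampus as the tissue, and do not say whether a library came from 1 animal or a pool, so p-values here measure only the spread between libraries.

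A circRNA forms when the splicing machinery joins a downstream donor to an upstream acceptor, which closes the exons in between into a ring without a cap or a poly(A) tail. Back-splicing uses the same splice sites as the linear transcript and competes with it, and rings are degraded slowly because exonucleases need a free end. In the brain, many circles come from genes of the synapse, and some build up to high levels in neurons while others stay rare beside their linear RNA. The circles described here were selected to be rare in that sense.

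Splice sites that a back-splice joins are shown for 5 hosts of the members, since these letters are what the circle and the linear transcript compete for. Among members with a site inside a RefSeq promoter window (build GRCm38.p6), they are the hosts with the most junction reads. No genome of the files' build was used, so other sites are not shown. Each is 30 bases long, read 5′ to 3′ on the gene's strand, with the intron's end dinucleotide in capitals. All 82 acceptor sites of listed circles inside such windows read AG at that place, and all 20 donor sites read GT.
Arpp21 acceptor, chr9:112187757-112187786 (minus strand): tactgttcttcttctttcAGgttgtcgacc
Ttc7b acceptor, chr12:100495431-100495460 (minus strand): ttctgtctttttccttctAGtcagaattcc
Scn8a acceptor, chr15:100936251-100936280 (plus strand): ctgtgttgctgttcttccAGagccgacctg
Ctnnd2 donor, chr15:30683461-30683490 (plus strand): aagaccccagGTgggtaaaaccatgtttct
Cdc42bpa donor, chr1:180040191-180040220 (plus strand): atgttcacagGTgagttagccagtctgtca
The Arpp21 acceptor closes a circle with 90 junction reads and a share of 0.969%, and a second one with 29 reads and a share of 0.322%. Arpp21 encodes a cAMP-regulated phosphoprotein that is abundant in neurons. The circles at the Ttc7b, Scn8a, Ctnnd2 and Cdc42bpa sites had 84, 34, 55 and 85 junction reads, with shares of 1.91%, 1.94%, 0.690% and 1.82%.

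The share that selected the members ran from 0.0689% to 2.00%, with a median of 1.04%, against a median of 4.97% and a highest value of 94.4% in the 2025 circles above the limit. Just inside the limit lay circles of Dscam (1.99%), Xpo5 (1.99%) and Ash1l (2.00%, with 17 junction and 834 linear reads), and just outside lay circles of Clip2 (2.00%, 22 and 1077 reads), Nbas (2.00%, 16 and 783 reads) and Adgrb3 (2.01%). At the limit on reads, 113 members had exactly 10, and 135 otherwise fitting circles had 9. No test is given for these values, since they define the members.

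Members were rare in junction reads and abundant in linear reads. Their junction reads had a median of 18 (quartiles 13 and 28, highest 217), against 32 (17 and 70, highest 22256) in the circles of higher share. Their linear reads had a median of 2024 (quartiles 1251 and 3629), against 611 (334 and 1155). Both numbers enter the share, so these differences follow from the choice. The span, on which the limits were the same for both kinds, had a median of 11743 bp in members and 12194 bp in the rest, with quartiles of 5790 and 22702 bp against 5651 and 23894 bp.

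**Figure D1:**
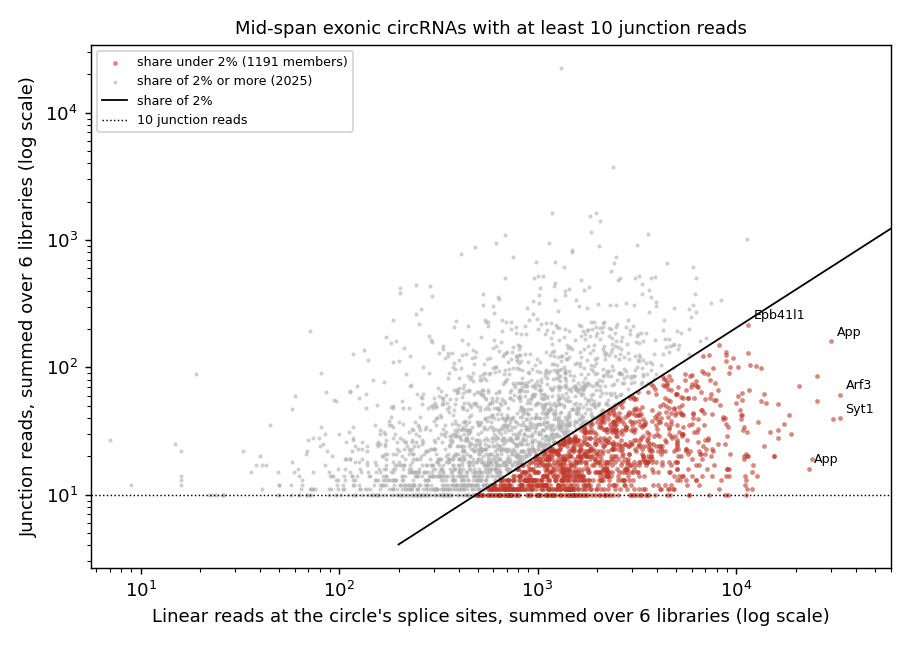
Junction reads (vertical axis, log scale) against linear reads at the circle's splice sites (horizontal axis, log scale), both summed over 6 libraries, for each exonic circRNA of 1000 to 50000 bp with at least 10 junction reads. Members (red) lie to the right of the line at a share of 2%, mostly under 100 junction reads, and the 2025 other circles (grey) lie to its left and reach 22256 junction reads.

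The host genes of members were well expressed. Their gene level, which the rule did not use but which linear reads partly measure, had a median of 11.8 FPKM (fragments scaled to transcript length and library depth; quartiles 7.68 and 20.3; 718 genes), against 3.97 FPKM (2.14 and 6.09; 1006 genes) for genes that host mid-span circles of 2% or more and no member, and 3.77 FPKM for all 11368 genes tested. Members began deeper in their genes: the acceptor lay at a median of 52.8% of the gene's length (quartiles 33.7 and 72.1%), against 42.2% (25.2 and 64.2%) for circles of higher share, and the donor at 67.3% against 60.9%. Member entries also lay in longer genes, with medians of 135586 and 112899 bp. The circle covered a median of 8.17% of the gene in members and 10.2% in the rest. These are descriptions over circles, many of which share a host or a splice site, and carry no test.

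The 1191 members came from 757 host entries. Of these, 523 had 1 member, 134 had 2, and 100 had 3 or more, which held 400 members. R3hdm1, which encodes a protein with an R3H nucleic acid-binding domain, had the most with 12, followed by Cadps (11; a priming factor for dense-core vesicle release), Dgki (9; a diacylglycerol kinase) and Adgrb3 (8; an adhesion receptor at synapses). Anks1b, Agtpbp1, Ptk2 and Prkcb had 7 members each. Within a host the shares could vary widely: the R3hdm1 members ran from 0.216% to 1.59% and from 10 to 99 reads, whereas the 7 members of Prkcb, a protein kinase C gene, stayed between 0.134% and 0.318%. A splice site was shared with another member by 384 members (32.2%), and 259 hosts (34.2%) also made a mid-span circle of 2% or more. Anks1b is an example, with 7 members of 0.285% to 1.68% beside 3 circles that reached 35.3%.

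Few members were blocks that a linear transcript is known to skip. The ends of 31 members (2.60%) coincided with those of a cassette exon or block of exons in the assembled splicing events, against 105 (5.19%) of the circles of higher share. The skipping form reached a mean of 0.1 FPKM in 13 of the 31. A pair of them lie in Rtn3, a reticulon of the endoplasmic reticulum, at chr19:7456300-7467867 (62 junction reads, share 1.23%) and at chr19:7456300-7458423 (45 reads, 0.999%). The linear form that skips these exons had 64.2, 99.9 and 72.5 FPKM after DHT (78.9 ± 18.7, SD) and 81.6, 97.4 and 95.1 FPKM after oil (91.3 ± 8.53). The form that includes them averaged 20.7 FPKM after DHT and 18.2 FPKM after oil. Skipping was the larger form in both groups, and the groups overlapped.

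The hairpin of a microRNA gene lay between the genomic ends of 17 members of 10 hosts, on the same strand (12 microRNA genes in all). Exon bounds were not used here, so whether the closed circle keeps the hairpin was not tested. R3hdm1 hosts Mir128-1, whose product is a brain-enriched microRNA, and 7 of its 12 members span that hairpin. Members of Zfr and Brsk2 likewise span the hairpins of Mir1898 and Mir3104. The mature sequences, from RefSeq (GRCm38.p6), are given with the seed, bases 2 to 8, in capitals, and no seed is shared between them.
mmu-miR-128-3p: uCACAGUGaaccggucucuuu
mmu-miR-128-1-5p: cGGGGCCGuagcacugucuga
mmu-miR-1898: aGGUCAAGguucacaggggauc
mmu-miR-3104-5p: uAGGGGGCaggagccggagcccucu
mmu-miR-3104-3p: aCGCUCUGcuuugcucccccaga
The files count reads at splice junctions and give no microRNA level.

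The libraries held 43512 to 55325 junction reads in the DHT group and 43573 to 48212 in the oil group, from 143 to 177 M (mega) and 154 to 159 M mapped reads. Markers went against the tissue label in part. Of 10 marker genes of hippocampal fields, 6 were under 1 FPKM on average (C1ql2, Dsp, Fibcd1, Lct, Neurod6 and Spink8), whereas 8 of 9 striatal markers were at 1 FPKM or more, with summed levels of 185 to 349 FPKM after DHT and 266 to 297 FPKM after oil. All 10 astrocyte markers were detected, and their sum was 746 to 808 FPKM after DHT, above 641 to 718 FPKM after oil. The sums overlapped between the groups for choroid plexus (1.29 to 31.0 and 3.26 to 79.9 FPKM, with 4 of 5 genes under 1 FPKM), myelin (418 to 504 and 366 to 444 FPKM) and red blood cells (347 to 1039 and 193 to 358 FPKM). The tissue is therefore named as labelled only, and the part of these markers in the results below was not tested. In such bulk RNA, fewer cells of a type and less RNA per cell cannot be told apart.

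The question the design puts to these circles is whether their levels, their linear partners or the ratio between them differed after DHT. As a group, members took a slightly larger part of all junction reads with DHT: 10.3, 10.3 and 10.6% after DHT and 10.1, 10.1 and 9.26% after oil (10.4 ± 0.173% and 9.82 ± 0.485%, SD, n = 3 each). The groups did not overlap, by a margin of 10.3 against 10.1%. These sums include members listed in 1 group only, 53 in DHT and 20 in oil, which reach 10 reads through that group alone. Such circles made up 3.66% and 1.90% of all circRNAs tested, and nothing is read from the margin. The 267 members listed in all 6 libraries held 2449 of 55325, 2341 of 49815 and 2071 of 43512 junction reads after DHT. After oil they held 2185 of 48212, 1998 of 45803 and 1925 of 43573, parts that overlapped with those after DHT. Scaled per M mapped reads, the junction reads of all members were 32.2, 30.7 and 32.1 after DHT and 30.7, 29.9 and 25.8 after oil, where the lowest DHT value and the highest oil value were equal to 3 digits. The circles of higher share also took a larger part with DHT (59.2 ± 0.351%) than with oil (57.8 ± 0.721%). The number of members listed was 936, 878 and 838 after DHT and 830, 826 and 754 after oil, or 17.2, 16.8 and 17.7% of the circRNAs listed after DHT and 16.9, 17.8 and 16.7% after oil, which overlapped. Over the 267 members listed in all 6 libraries, the pooled circular share was 0.864, 0.888 and 0.951% with DHT and 0.902, 0.874 and 0.867% with oil, which overlapped.

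**Figure D2:**
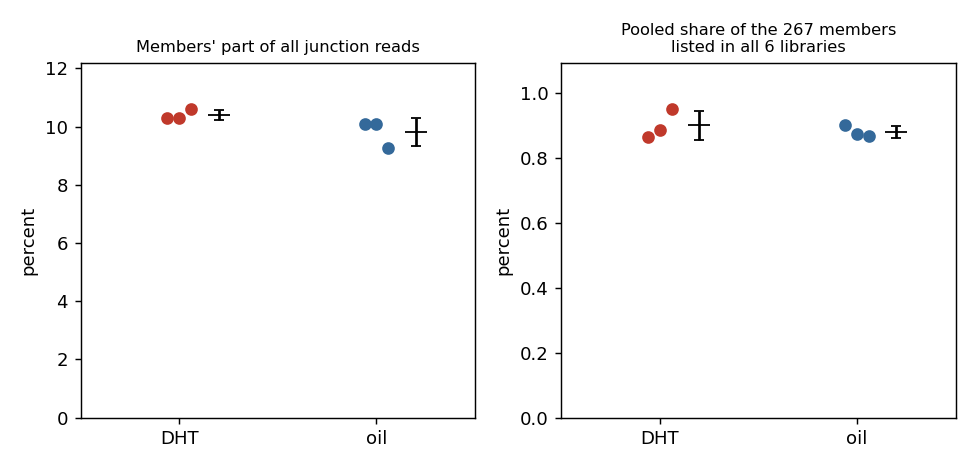
The members' part of all junction reads (left, percent) and the pooled circular share of the 267 members listed in all 6 libraries (right, percent), with 1 point for each library and the mean and SD beside it. The DHT libraries lie at 10.3 to 10.6% on the left, above the oil libraries at 9.26 to 10.1%, and on the right the groups overlap. The left panel includes members listed in 1 group only, which passed the read limit through that group.

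No member's junction reads differed between the groups after adjustment. In edgeR's quasi-likelihood test over 4260 circRNAs with at least 10 reads, 0 of 1191 members had a Benjamini-Hochberg adjusted p under 0.05 (lowest 0.662), against 0.0704% of all circRNAs tested. At an unadjusted p under 0.05 there were 35 members, 30 higher and 5 lower with DHT (2.94%, beside 4.32% of all circRNAs), and DESeq2 also called 0 after adjustment. With the cut-offs of the study itself (p under 0.05 before adjustment, 2-fold or more), 27 members were higher and 5 were lower with DHT. Over all circRNAs tested that threshold was passed by 2.35% upward and 1.20% downward, and the members' 27 and 5 of 1191 are near or below those shares. All 3 DHT libraries lay above all 3 oil libraries for 82 members (6.88%) and below them for 35 (2.94%), beside 6.10% and 3.99% of all circRNAs. The median log2 fold change was 0.12 over members and 0.08 over all circRNAs tested. With circles that a library does not list set to 1 read in place of 0, the members' median became -0.02 and the counts 25 higher and 38 lower. Over all circRNAs that setting gave a median of -0.03, with 2.49% higher and 3.73% lower, so all circRNAs moved the same way.

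The 10 members with the most reads overlapped between the groups. Epb41l1, a 4.1 protein that links spectrin to the membrane, had the most abundant circle (chr2:156508813-156514210, share 1.86%). It had 45, 41 and 36 junction reads after DHT and 43, 22 and 30 after oil, or 833 ± 21.4 against 677 ± 202 per M junction reads (SD, n = 3 each), and the groups overlapped. The next was a circle of App, the amyloid precursor protein gene (chr16:85013627-85030365, share 0.526%), with 30, 18 and 39 reads after DHT and 30, 15 and 28 after oil. Ubqln1, a ubiquitin-binding shuttle to the proteasome, had 35, 42 and 20 reads after DHT and 15, 14 and 23 after oil (chr13:58191722-58199070). That gave 656 ± 199 against 376 ± 124 per M, a log2 fold change of 0.81 (SE 0.34, edgeR adjusted p = 0.807), with 1 DHT library inside the range of oil. The circles of Phactr1, Psd3, Ctnnd2, Anks1b, Ank3, Ppp1r9a and Dlgap1 had 133, 129, 126, 125, 122, 118 and 113 reads in total. Their log2 fold changes lay between -0.29 for Ppp1r9a, a scaffold of dendritic spines, and 0.36 for Dlgap1, a scaffold of the postsynaptic density, with edgeR adjusted p-values of 0.998.

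**Figure D3:**
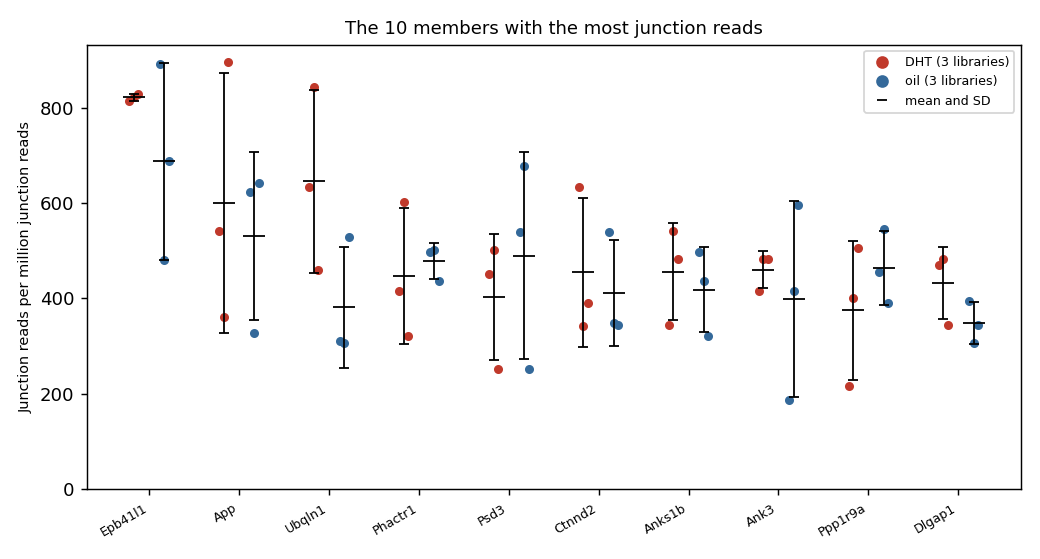
Junction reads per M junction reads (vertical axis, from 0) for the 10 members with the most reads, in 3 DHT libraries (red, left) and 3 oil libraries (blue, right) of each pair, with mean and SD. In each of the 10 the groups overlap, including Ubqln1, whose means differ most.

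The circles with the lowest shares sat in some of the most abundant neuronal transcripts. This follows from the choice, since at least 10 junction reads at so low a share require very many linear reads. A second App circle (chr16:85079840-85082888) had 16 junction reads beside 23204 linear reads, a share of 0.0689%. Its reads were 7, 3 and 4 after DHT and 2, none listed and none listed after oil, too few for a difference to be detectable (log2 fold change 2.56, SE 1.93, edgeR adjusted p = 0.998). Ppp3ca, the catalytic subunit of calcineurin, gave 3 circles from 1 acceptor at base 136868602 of chromosome 3, with 10 to 19 reads and shares of 0.0782, 0.0893 and 0.0912%.

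Among members higher with DHT, those with the smallest p-values on junction reads lay in Snap47, Mef2d, R3hdm1, Napb, Ubqln1, Pi4ka and Ncor1. These hosts have varied roles, and none of the circles passed adjustment. Napb encodes a beta-SNAP protein, and its circle (chr2:148703061-148707205) had 24, 25 and 19 reads after DHT and 7, 16 and 8 after oil, or 464 ± 39 against 223 ± 107 per M. All DHT libraries lay above all oil libraries, and the log2 fold change was 1.05 (SE 0.42, unadjusted p = 0.0159, edgeR adjusted p = 0.807). The Napb linear reads gave a log2 fold change of 0.08 and the gene 37.4 ± 2.75 FPKM with DHT and 37.3 ± 1.75 FPKM with oil. Snap47, a SNARE family member, had 14, 7 and 11 reads after DHT and 3 in a single oil library (log2 fold change 3.20, SE 1.04, unadjusted p = 0.0036, edgeR adjusted p = 0.807). Mef2d, a transcription factor of neuronal activity, had 12, 6 and 2 reads after DHT and none listed after oil. Ncor1, a nuclear receptor corepressor that can bind the androgen receptor, had 5, 3 and 7 reads after DHT and none listed after oil. The Mef2d and Ncor1 circles passed the read limit through the DHT group alone, so no fold difference is read from them.

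Among members lower with DHT, single libraries carried the largest values. Nptn, a synaptic adhesion protein, had a circle (chr9:58618663-58643802) with none listed in the 3 DHT libraries and 29 reads in oil 1 alone of the oil libraries, and its edgeR adjusted p of 0.662 was the lowest of any member. Without oil 1 no read of that circle remains. Sptan1, the alpha-spectrin of neurons, likewise had none listed after DHT and all 15 reads in oil 3. Stxbp5, or tomosyn, had none listed after DHT and 2, 6 and 5 reads after oil. Pcmtd1 had none listed after DHT and 4, 3 and 6 reads after oil (edgeR adjusted p = 0.807 for each). The large Ank2 circle (chr3:127038747-127057091) had 20 reads in DHT 1, none listed in DHT 2 and DHT 3, and 20, 15 and 11 reads after oil. Without DHT 1 it was the single member called by edgeR (log2 fold change -6.95), and with DHT 1 it gave -1.29 (SE 0.66, edgeR adjusted p = 0.807). In all, 53 members had at least 10 reads after DHT and none listed after oil, and 20 had the opposite, beside 3.66% and 1.90% of all circRNAs tested. Such circles reach 10 reads only through the group where they are listed, so nothing is read from these counts or from single circles among them. Since a library lists a circle only from 2 reads, an unlisted circle can still hold 1.

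Linear reads at the same splice sites were deeper and gave the differences that passed adjustment. Among the 267 members listed in all 6 libraries, linear reads rose with DHT at 9 members of 7 hosts and fell at none (edgeR, adjusted p under 0.05 over 1581 circRNAs). Over all 1581, 0.759% were called higher and 0.127% lower. The members' share of 9 in 267 (3.37%) stood above that, and members also had more linear reads to test with, a median of 4193 over the 6 libraries against 1109 for the other 1314 circRNAs, of which 3 were called higher and 2 lower. Differences were small, between 1.24-fold and 1.52-fold. The median log2 fold change of linear reads was 0.03 over members and 0.00 over all. Of the 267 members 156 were higher (58.4%), beside 49.3% of all 1581, and these members came from 208 hosts, so they are not independent. Counting of linear reads was not described in the sources used here. They behaved as a sum over both splice sites of a circle, since in 723 sets of 4 circles built from 2 starts and 2 ends the sums added up exactly in 66.9%, so circles that share a site share linear reads.

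The largest of these differences was in R3hdm1. At the circle chr1:128193460-128197097 (25 junction reads, share 0.496%) the linear reads were 1144, 1010 and 940 after DHT and 605, 694 and 627 after oil. That is 6.35 ± 0.267 against 4.11 ± 0.355 per M mapped reads (SD, n = 3 each), a log2 fold change of 0.61 (SE 0.09, edgeR adjusted p = 1.31e-04), and every DHT library lay above every oil library. Both other called R3hdm1 members begin at the same acceptor and end at bases 128221703 and 128231467, with log2 fold changes of 0.48 and 0.41 (edgeR adjusted p = 7.83e-04 and 0.00504). The R3hdm1 member that ends at base 128231467 but begins at base 128190638 gave 0.15 (edgeR adjusted p = 0.510), and the one that begins at base 128211205 gave 0.15 (adjusted p = 0.509). Subtracting linear reads of circles that share a donor leaves the difference between their acceptors. The acceptor at 128193460 exceeded that at 128190638 by 465, 372 and 363 reads after DHT and by 154, 158 and 131 reads after oil. The same numbers came out at the donors 128197097, 128221703 and 128231467, in each library where both circles were listed. Scaled per M mapped reads, this excess was 2.46 ± 0.206 with DHT and 0.944 ± 0.0960 with oil. This subtraction was chosen after the values were seen and has no test. The R3hdm1 gene as a whole had 32.7 ± 2.76 FPKM with DHT and 28.3 ± 3.14 FPKM with oil (limma adjusted p = 0.699).

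**Figure D4:**
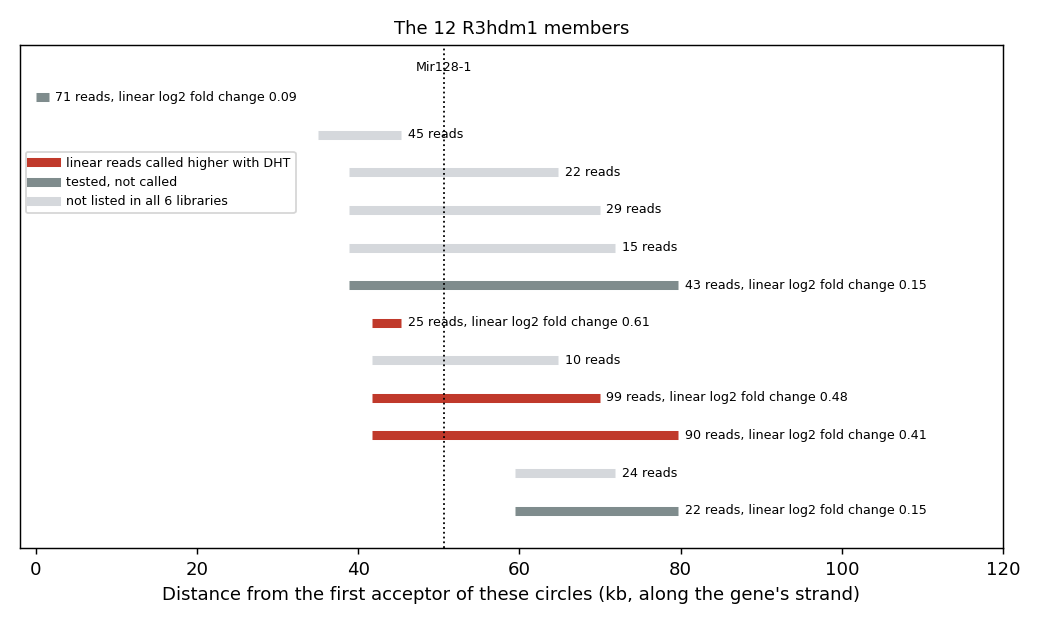
The 12 R3hdm1 members as bars from acceptor to donor, by distance along the gene from the first acceptor (kb), with total junction reads and, for the 6 members listed in all libraries, the log2 fold change of linear reads (DHT over oil) beside each. The 3 red bars, called higher with DHT at 0.61, 0.48 and 0.41, begin at 1 acceptor, and the dotted line marks the Mir128-1 hairpin.

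Junction reads of the R3hdm1 circles from that acceptor did not pass adjustment. The circle to 128221703 had 24, 19 and 24 reads after DHT and 11, 10 and 11 after oil, with no overlap (log2 fold change 1.0, SE 0.41, edgeR adjusted p = 0.807). The circle to 128231467 had 20, 30 and 11 reads after DHT and 13, 8 and 8 after oil (0.99, SE 0.45, adjusted p = 0.807). Their ratio of junction to linear reads gave log2 fold changes of 0.50 and 0.55, with unadjusted edgeR p-values of 0.220 and 0.199. The third, to 128197097, had 2, 6 and 5 reads after DHT and 5, 3 and 4 after oil.

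The other 6 hosts had 1 called member each. Arf3, a small GTPase of Golgi traffic, had the deepest linear reads of any member (chr15:98740337-98742829, share 0.182%). They were 6974, 6967 and 5500 after DHT and 5025, 4687 and 4267 after oil, a log2 fold change of 0.40 (SE 0.06, edgeR adjusted p = 2.35e-04), while its junction reads of 7, 18 and 11 with DHT and 5, 11 and 9 with oil overlapped. Brsk2, a kinase of neuronal polarity, gave 0.41 (adjusted p = 0.00904) at chr7:141990348-141992300, and its more abundant circle of 9.21% share, from another acceptor to the same donor, gave 0.39 (adjusted p = 0.0108). Dlgap1 gave 0.35 at chr17:70761075-70766089 (adjusted p = 0.0108). Its linear reads were 2021, 1683 and 1389 after DHT and 1328, 1230 and 1202 after oil, and after scaling to mapped reads the groups did not overlap.

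Elavl3, a neuronal RNA-binding protein of the Hu family, gave a linear log2 fold change of 0.38 at chr9:22024674-22036860 (edgeR adjusted p = 0.0157), with 3.41 ± 0.164 per M mapped reads after DHT and 2.59 ± 0.068 after oil. Zfr, a zinc finger protein that binds double-stranded RNA, gave 0.35 at chr15:12136396-12171854 (adjusted p = 0.0157). A second Zfr member from the same acceptor, ending at base 12184166, gave 0.10 (adjusted p = 0.701). The donor of the first exceeded that of the second by 575, 502 and 355 linear reads after DHT and by 247, 273 and 282 after oil, chosen after the values were seen. Pi4ka, a phosphatidylinositol 4-kinase, gave 0.31 at chr16:17348715-17356216 (adjusted p = 0.0395), whereas 3 Pi4ka members that share an acceptor at base 17389457, elsewhere in the gene, gave -0.14, -0.06 and -0.05 (adjusted p = 0.515 to 0.898). The Pi4ka circle with higher linear reads also had 17, 21 and 8 junction reads after DHT and 8, 5 and 5 after oil (log2 fold change 1.26, SE 0.55, adjusted p = 0.807).

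**Figure D5:**
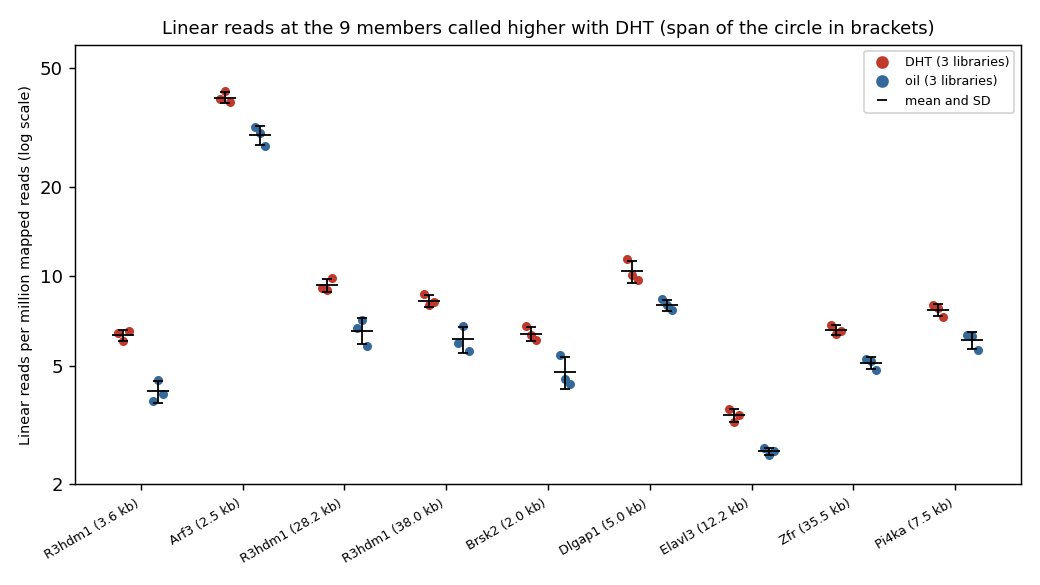
Linear reads per M mapped reads (vertical axis, log scale) at the 9 members called higher with DHT, in order of adjusted p, for 3 DHT libraries (red, left) and 3 oil libraries (blue, right), with mean and SD and the span of each circle in kb. In all 9 the DHT libraries lie above the oil libraries, from 3.41 against 2.59 in Elavl3 to 39.8 against 29.8 in Arf3, and the 3 R3hdm1 circles share 1 acceptor.

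These calls leaned on the oil libraries: leaving out oil 1, oil 2 or oil 3 left 4, 4 and 3 members called, and leaving out a DHT library left 8 to 11. The R3hdm1 circles to 128197097 and 128221703 and the Arf3 circle passed without any one library, with highest adjusted p-values of 0.0181, 0.0444 and 0.0181. The summed astrocyte markers move with the same split of the libraries, and their part in the result was not tested. Those sums were of FPKM without centring, and 8 of the 10 astrocyte genes were higher with DHT, beside 63.6% of all genes. At the level of whole genes, none of 710 tested hosts of members passed limma's test (0 called, beside 0.0176% of 11368 genes). At an unadjusted p under 0.05 there were 51 hosts (7.18%), beside 7.34% of all genes. Host genes were higher with DHT in 451 of 710 cases (63.5%), and all genes in 63.6%, and the log2 fold changes had medians of 0.06 and 0.07. With libraries centred on their medians, 356 of 710 hosts (50.1%) were higher with DHT and the median was 0.00. Of the hosts with called linear reads, Zfr had 27.8 ± 4.01 FPKM with DHT and 19.0 ± 1.81 FPKM with oil (limma adjusted p = 0.652) and Arf3 65.7 ± 17.5 and 45.6 ± 9.01 FPKM (0.659). Brsk2 had 22.8 ± 1.35 and 20.5 ± 1.05 FPKM, Dlgap1 69.7 ± 3.51 and 66.3 ± 2.50 FPKM, and Pi4ka 24.5 ± 5.22 and 25.3 ± 3.59 FPKM, with limma adjusted p-values of 0.718, 0.853 and 0.951. No gene value was obtained for Elavl3.

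The ratio of junction to linear reads did not pass adjustment for any member. Of the 267 listed in all libraries, 0 were called by edgeR with junction and linear counts fitted side by side, beside 0% of all 1581. A limma fit on log2 ratios also called 0. At an unadjusted p under 0.05 there were 9 members (3.37%), beside 79 of all 1581 (5.0%). The lowest adjusted p of a member was 0.825. The smallest unadjusted p-value belonged to Ate1, an arginyltransferase (chr7:130507482-130516168), with 5, 8 and 8 junction reads after DHT and 2, 2 and 2 after oil. Its log2 ratio change was 1.74 (SE 0.65, edgeR adjusted p = 0.825), and each oil value lay at 2 reads, the lowest count a library lists. Eri3, an exonuclease, had 9, 9 and 12 reads after DHT and 7, 3 and 2 after oil (1.34, edgeR adjusted p = 0.825). In the other direction a Psd3 circle of 1.97% share (chr8:67960387-67964354) had 6, 5 and 2 reads after DHT and 14, 12 and 3 after oil (-1.28, edgeR adjusted p = 0.840), and a Cadps circle 3, 6 and 3 against 15, 3 and 8 (-1.22, adjusted p = 0.903). The value of oil 3 lies within the DHT range for Psd3, and that of oil 2 for Cadps.

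By role of the host, the list with the largest part of its genes among member hosts was the postsynaptic one. Of all 11368 genes tested, 710 were member hosts. The lists hold brain genes chosen with earlier results known. The rule also favours hosts with many linear reads (lowest 493 for a member), so no enrichment is read from these counts. Of 32 genes on the list of postsynaptic density and glutamate receptor genes, 19 hosted 31 members with 872 reads, and 9 hosted 12 mid-span circles of higher share. A Dlg1 circle (73 reads) and a Homer1 circle (70 reads), both of scaffold genes, were the largest after Dlgap1, with log2 fold changes of 0.29 and 0.69 on junction reads. None of the 31 had an unadjusted p under 0.05, with a median of 0.36 against 0.08 for all circRNAs, and 1 of 7 with tested linear reads, Dlgap1, was called higher. Synaptic vesicle genes gave 19 members from 14 of 41 genes, among them Nsf (0.127%) and Syt1 (0.120%), with 1 at an unadjusted p under 0.05 (Napb) and a median of 0.00. Adhesion and membrane genes gave the most members, 34 from 15 of 35 genes with 1218 reads. A circle of Nrxn3, a presynaptic adhesion protein, had 29, 19 and 11 reads after DHT and 19, 14 and 9 after oil, and the groups overlapped. None of the 34 had an unadjusted p under 0.05.

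Genes of calcium, calmodulin and cAMP signalling gave 30 members from 16 of 45 genes, with a median junction log2 fold change of 0.08, and none had an unadjusted p under 0.05. Gnb1, a G protein beta subunit, had the most reads there, 10, 9 and 8 after DHT and 28, 6 and 11 after oil, with the highest value in a single oil library. Ion pumps, channels and transporters gave 27 members from 15 of 45 genes (median 0.32, none at p under 0.05), cytoskeletal genes 24 from 15 of 47 (median -0.04, 1 higher and 1 lower), and RNA-binding and splicing genes 19 from 12 of 43 (median 0.06, none). Qk, whose protein promotes the formation of some circles in human cells, hosted 2 members. The larger (chr17:10238893-10282981, 0.983%) had 14, 14 and 29 reads after DHT and 17, 14 and 13 after oil. Translation and proteolysis genes gave 17 members from 8 of 35 genes (2 higher), and chromatin and transcription genes 17 from 10 of 28 (1 higher).

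Of 40 energy metabolism genes, 2 hosted members (Ogdh and Idh3a, 3 members in all), and none hosted a mid-span circle of higher share. Of 28 androgen-response genes, 2 hosted members. These were Acsl3, an acyl-CoA synthetase, with 14, none listed and 9 reads after DHT and none listed, 5 and 8 after oil, and Ank2, whose second circle had 11, 22 and 19 reads with DHT and 17, 20 and 13 with oil. None of these 3 members had an unadjusted p under 0.05. Striatal marker genes hosted 4 members, in Pde10a and Rgs9, and hippocampal field, astrocyte, microglial, endothelial, choroid plexus and red blood cell markers hosted none. Medians over 3 or 4 members are not given for these small lists.

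The span limits themselves were filled at both ends. The longest member lay in Gphn, the gephyrin gene of inhibitory synapses (chr12:78454757-78504751, 49994 bp, 28 reads, share 1.20%), and the shortest in Adgrb1, an adhesion receptor (chr15:74528930-74529940, 1010 bp, 20 reads, 0.846%). The Gphn circle had 2, 9 and none listed after DHT and 5, 7 and 5 after oil, and the Adgrb1 circle 3, 4 and 3 against 5, none listed and 5. Their edgeR adjusted p-values were 0.998.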

How the data were processed

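Each library has counts of junction reads and of linear reads at every listed circle, deposited by the authors, with circles of under 2 reads not listed; unlisted circles were counted as 0 junction reads. The deposited score is spliced reads scaled to mapped reads (SRPBM), per the labels' protocols, and served only to work out mapped reads. FPKM values of exon and splicing events were deposited by the authors per locus. Gene FPKM was computed as the larger of the summed first-exon and last-exon events, which can miss transcripts. The design had assumed gene values. An exact 0 can be a failed estimate. The submitters' processing notes name bcl2fastq 2.17.1.14, cutadapt, HISAT2 2.0.1, BWA and the build mm9 without roles. Circle calling and linear read counting were not given in the sources used here. Coordinates were treated as GRCm38, 1-based, since 99.5% of 11392 hosted circles lay inside their RefSeq gene on that build. Of 32348 gene identifiers, 99.7% matched a symbol. Strand use in counting is not stated, so overlapping genes cannot be told apart.

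Junction counts (at least 10 reads) and linear counts (listed in all 6 libraries) entered the quasi-likelihood test of edgeR 4.0.16 with TMM factors. For the ratio, the same test took junction and linear counts of a circle listed in all 6 libraries side by side. That model held effects of library and of read kind, and a term for junction counts in DHT. Its library sizes were mapped reads, without TMM factors. Gene values, as log2(FPKM + 0.5) of genes averaging 0.5 FPKM or more, were fitted with limma 3.58.1 in R 4.3.3 (such fold changes understate those of low genes). Benjamini-Hochberg adjustment ran over all rows of each test. DESeq2 1.42.0 was an alternative. Fold changes are DHT over oil. Between replicates of a group the chi-square of counts, with unlisted circles as 0, was 2.06 to 2.86 per degree of freedom. No replicate is therefore a copy of another, but this value cannot tell whether libraries share an animal or a pool. Members and lists were chosen with earlier results of these data known. Named members are those with the most reads, the lowest share, the smallest p in each direction, values at the limits, no listed read in 1 group, and the most reads in each host list. A few members that the rule names are not reported here.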

Additional observations from a re-analysis of the deposited data

How the results depend on the processing

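The number of members, 1191, fell to 568 with a share under 1%, to 576 with linear reads halved, to 530 with at least 20 reads and to 267 with a listing in all 6 libraries. It was 951 to 1053 with 1 library left out. Junction reads gave 0 called members under every alternative except leaving out DHT 1, which gave 1 (range 0 to 1). At the study's own threshold the counts of 27 higher and 5 lower became 5 and 2 with at least 20 reads, the lower count became 8 with no filter, and it became 38 with unlisted circles set to 1 read. This last choice was added after seeing the data; it also turned the median log2 fold change of members to -0.02, while the other alternatives gave positive medians. With 1 library left out, 13 to 29 were higher and 4 to 17 lower. Linear reads gave 9 called members, 14 with DESeq2 and 3 to 11 with 1 library left out. Ratio and host gene tests kept 0 calls under their alternatives, and centring libraries changed the hosts at an unadjusted p under 0.05 from 40 higher and 11 lower to 18 and 22. For single members on junction reads, leaving out 1 library reversed the log2 fold change of the most abundant Ank3 (-0.11 to 0.65; -0.11 without oil 1), Anks1b (0.00 to 0.30; without oil 3), App (-0.16 to 0.46; -0.16 without DHT 3, -0.07 without oil 2), Ctnnd2 (-0.16 to 0.44; without DHT 1), Phactr1 (-0.32 to 0.14; without DHT 3) and Psd3 circles (-0.53 to 0.05; without DHT 3 and oil 2). Nptn ran from -6.86 to 0.00 and Sptan1 from -6.05 to 0.00, at 0.00 without their single oil library. The cause was not tested. No paired analysis was possible because the labels give the libraries no shared numbers, and 1 to 3 here only name them in accession order. Depth limits junction reads: 661 members had 10 to 19 reads in all.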
